A study of Mus musculus with 48 samples.

Results

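Glutamate receptor genes were followed in 10 members, the AMPA receptor subunits Gria1, Gria2, Gria3 and Gria4, the NMDA receptor subunits Grin1, Grin2a and Grin2b, and the metabotropic receptors Grm5, Grm2 and Grm3. The members were taken by name, through the transcript accession that the scanner files give for each probe, and 10 of 10 were found among 17028 named genes measured, on 19 of the 56605 probes of the array. All 19 probes were well above background on 46 of 46 readable arrays, and none was saturated. RNA from both tissues of 24 mice, cortex and hippocampus, was hybridised to 48 arrays of 1 colour, 6 for every combination of tissue, genotype and drinking water. APP/PS1 mice were heterozygous APPswe/PS1dE9 males on the C57Bl6/J background, a model of amyloid deposition whose transgenes are driven by the mouse prion promoter, and WT mice were littermates without the transgenes. H2O mice drank water, and MSX-3 mice drank water with 0.3 g/L of MSX-3, a prodrug that releases an antagonist of an adenosine receptor, A2AR. Treatment began at 3 months of age according to the sample labels and at 4 months according to the deposited series text, and it ended at 9 to 10 months. The grid of spots had not been found by the scanner software on 2 arrays, both of cortex, from 1 WT mouse on H2O and 1 WT mouse on MSX-3. They were left out, which left 5 arrays in each of these 2 groups.

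Glutamate is the main excitatory transmitter of cortex and hippocampus. AMPA receptors are tetramers of the Gria products that carry fast excitation, with Gria2 limiting their permeability to calcium, while NMDA receptors combine the obligatory Grin1 subunit with Grin2 subunits and admit calcium when binding of glutamate coincides with depolarization. Metabotropic receptors signal through G proteins, Grm5 through the phospholipase C route at postsynaptic sites, and Grm2 and Grm3 through inhibition of adenylyl cyclase, with Grm2 known mainly from presynaptic terminals and Grm3 from neurons and astrocytes.

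A level is the log2 intensity of a probe minus the 75th percentile of its array, so that a level of 0 equals that percentile, and levels were compared between groups and never between probes. A difference is a difference of group means of these levels, and a member was called at a Benjamini-Hochberg adjusted p under 0.05 over all tested probes of the array and a fold change of at least 1.5, which is 0.585 on the log2 scale. Each gene is represented by its brightest probe. Readable arrays lay on 7 slides scanned on 2 days, and the share of spots well above background was 55.8% to 75.5% on them and 11.4% to 15.8% on the arrays left out. The tissue labels were checked with marker genes. Prox1, Dsp and C1ql2, markers of dentate granule cells, had log2 differences of -2.94, -7.23 and -4.38 between the cortex and hippocampus of WT H2O mice, and of 4 measured markers of cortical layers Cux2 and Lamp5 were higher by 2.81 and 2.95, while Fezf2 and Tle4 differed by 0.17 and -0.19 and were not called. The genotype labels were checked with Prnp, the gene whose promoter drives the transgenes. Its lowest APP/PS1 level lay above the highest WT level by 1.72 in the cortex and 1.40 in the hippocampus.

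Between cortex and hippocampus the members split in direction. In WT H2O mice 3 of the 10 were called, Gria1 and Grm5 lower and Gria4 higher in the cortex, beside 15.8% of all tested probes. It was 4 of 10 in WT MSX-3 mice, against 16.5% of all probes, 5 of 10 in APP/PS1 H2O mice, against 15%, and 4 of 10 in APP/PS1 MSX-3 mice, against 17.4%. The median difference of the 10 members was 0.00, -0.19, 0.01 and -0.19 in these 4 groups, and that of all tested probes was -0.06, -0.03, -0.00 and -0.09. Gria1, Gria4 and Grm5 were called in each of the 4 groups, and Grin2a and Grm3 in 2 each. The share of all probes called in each of the 4 groups was not counted.

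**Figure D1:**
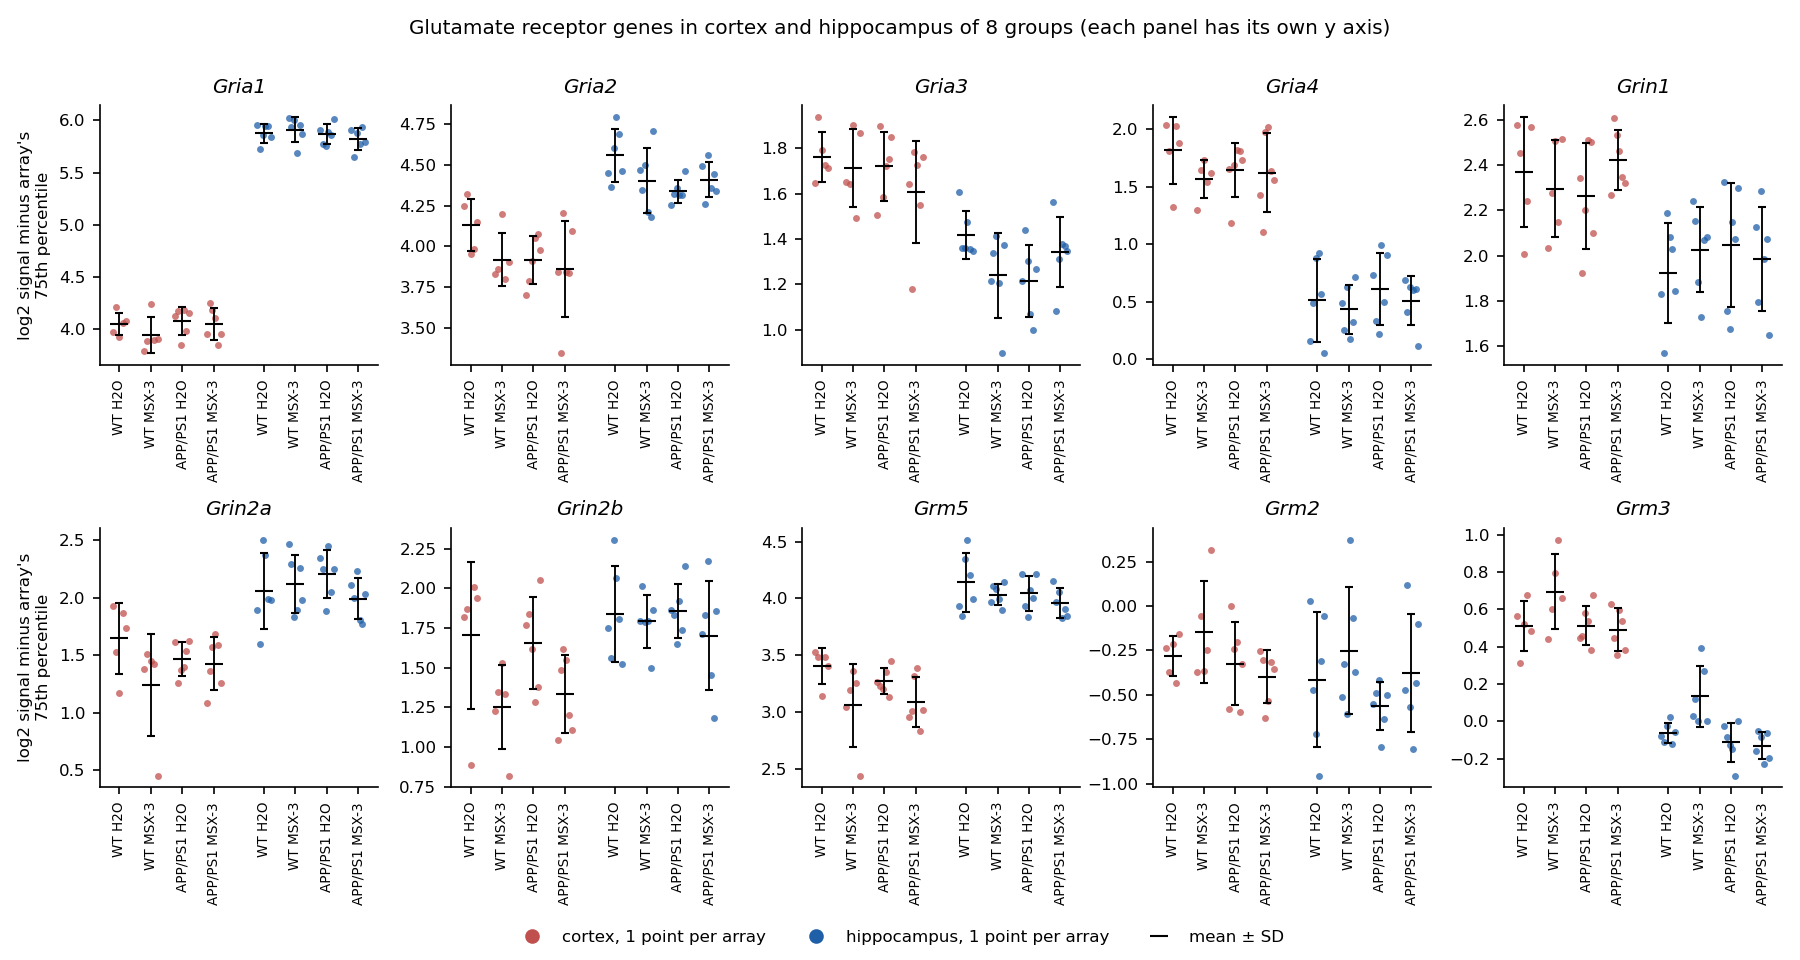
Levels of the 10 genes (y axis, log2 signal minus the 75th percentile of the array, a separate scale in each panel) in WT mice on H2O, WT mice on MSX-3, APP/PS1 mice on H2O and APP/PS1 mice on MSX-3, in cortex (red) and hippocampus (blue), with 1 point per array and the group mean ± SD in black. The cortex points of Gria1 and Grm5 lie below every hippocampus point and those of Gria4 above.

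Gria1 encodes the AMPA subunit GluA1, which is regulated during synaptic plasticity, and lies at chr11:57011571-57330244 (GRCm38.p6, as are all positions here). In WT H2O mice its level on the 5 cortex arrays was 3.92, 3.98, 4.05, 4.08 and 4.21, and on the 6 hippocampus arrays it ran from 5.72 to 5.95 with a median of 5.90. In WT MSX-3 mice the 5 cortex levels were 3.79, 3.89, 3.90, 3.90 and 4.24, and the hippocampus ran from 5.69 to 6.02 with a median of 5.95. The tissues did not overlap in these mice. APP/PS1 H2O mice had cortex levels from 3.85 to 4.18 with a median of 4.14 and hippocampus levels from 5.76 to 6.02 with a median of 5.87. In APP/PS1 MSX-3 mice the cortex ran from 3.85 to 4.25 with a median of 4.03, and the hippocampus from 5.65 to 5.94 with a median of 5.84. Every cortex array was thus below every hippocampus array, the highest of 22 cortex levels being 4.25 and the lowest of 24 hippocampus levels 5.65. Gria1 was 3.56-fold lower in the cortex of WT H2O mice (log2 difference -1.83, SE 0.081, adjusted p = 4.16e-08), and the log2 difference was -1.97 in WT MSX-3, -1.79 in APP/PS1 H2O and -1.78 in APP/PS1 MSX-3 mice.

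Gria4 encodes GluA4, known for fast gating and for expression in interneurons, and lies at chr9:4417893-4796234. In WT H2O mice its cortex levels were 1.32, 1.81, 1.88, 2.03 and 2.03, and its hippocampus levels ran from 0.05 to 0.93 with a median of 0.53. The cortex levels of WT MSX-3 mice were 1.30, 1.54, 1.62, 1.65 and 1.73, against 0.18 to 0.71 with a median of 0.41 in the hippocampus. Gria4 thus had the opposite direction to Gria1. In APP/PS1 H2O mice the cortex ran from 1.19 to 1.82 with a median of 1.71 and the hippocampus from 0.22 to 0.99 with a median of 0.61, and in APP/PS1 MSX-3 mice the cortex ran from 1.11 to 2.02 with a median of 1.60 and the hippocampus from 0.12 to 0.69 with a median of 0.61. The lowest cortex level of all, 1.11, was above the highest hippocampus level, 0.99. The difference was 1.30 in WT H2O mice (2.47-fold, SE 0.188, adjusted p = 0.000291), 1.14 in WT MSX-3, 1.03 in APP/PS1 H2O and 1.11 in APP/PS1 MSX-3 mice, called in each. The other 2 probes of Gria4 gave differences from 0.83 to 1.44 and were called in 4 of 4 groups.

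Gria2 and Gria3 differed between the tissues by less than 1.5-fold. Gria2, which encodes the subunit that keeps calcium out, lies at chr3:80681450-80804227, and its cortex levels were 3.95, 3.98, 4.15, 4.25 and 4.32 in WT H2O mice against 4.37 to 4.79 with a median of 4.53 in the hippocampus. The cortex was lower by 0.43 (95% interval -0.66 to -0.20, adjusted p = 0.0102), with no overlap of the arrays, and by 0.42 to 0.55 in the 4 groups, with adjusted p from 0.000961 to 0.0102. Gria3, the X-linked subunit GluA3 at chrX:41400819-41678601, went the other way. Its cortex levels in WT H2O mice were 1.65, 1.71, 1.73, 1.79 and 1.94, and its hippocampus levels ran from 1.35 to 1.61 with a median of 1.36. It was higher in the cortex by 0.35, 0.47 and 0.50 in WT H2O, WT MSX-3 and APP/PS1 H2O mice (adjusted p = 0.00951, 0.0103 and 0.00116), while in APP/PS1 MSX-3 mice the difference was 0.26 (95% interval 0.01 to 0.51, adjusted p = 0.102). AMPA subunits therefore lay on both sides of 0, with Gria1 and Gria2 lower in the cortex and Gria3 and Gria4 higher.

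**Figure D2:**
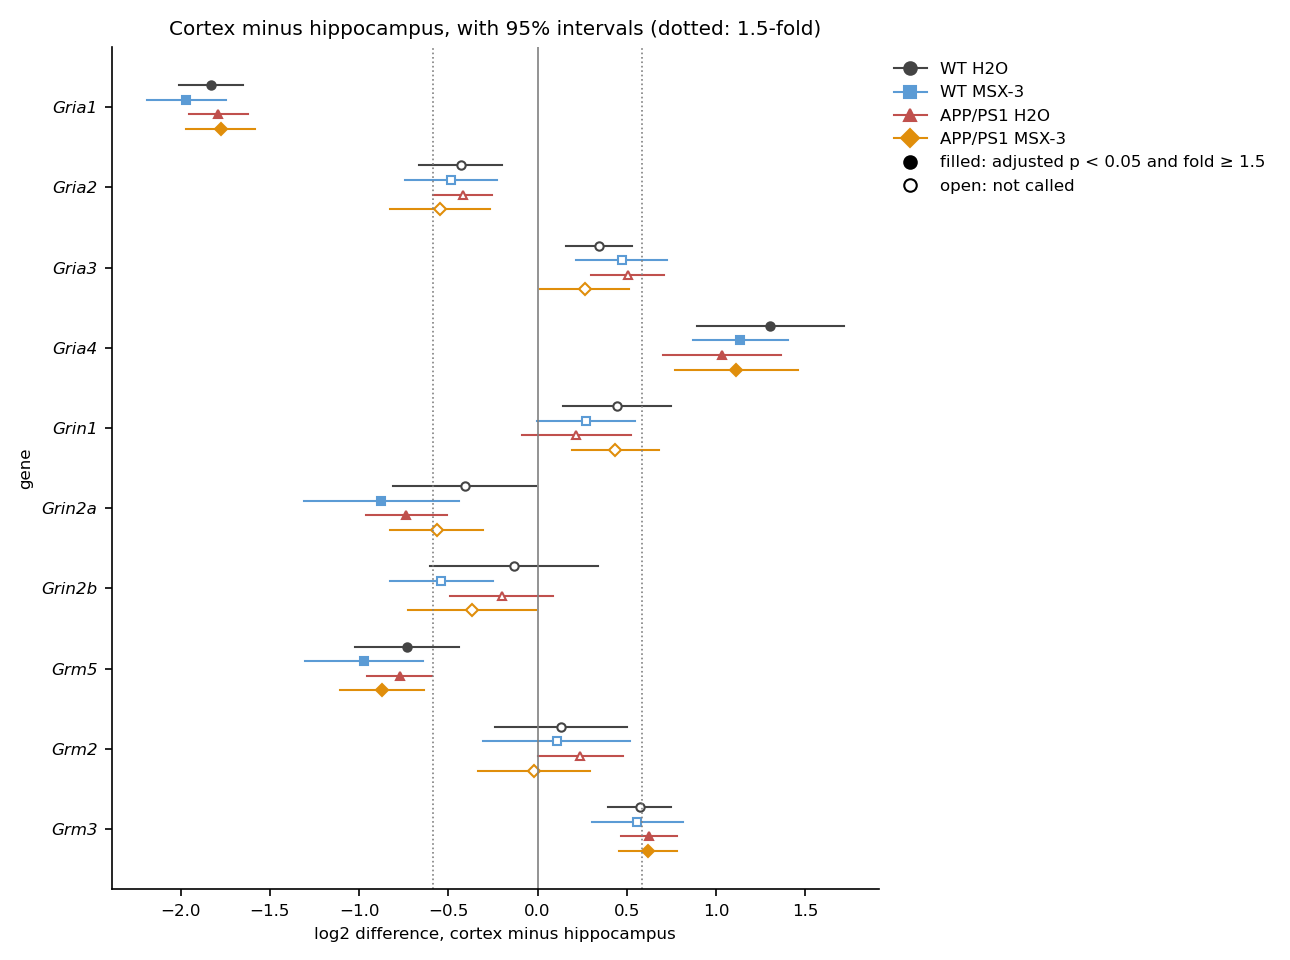
Log2 difference between cortex and hippocampus (x axis, positive where the cortex is higher) of the 10 genes (y axis) in WT mice on H2O, WT mice on MSX-3, APP/PS1 mice on H2O and APP/PS1 mice on MSX-3, with 95% intervals, filled where called, and dotted lines at a 1.5-fold difference. Gria1 lies near -1.8 to -2.0 and Gria4 near 1.0 to 1.3 in all 4 groups, and the filled symbols are those of Gria1, Gria4, Grm5, Grin2a and Grm3.

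Promoters were at hand for 5 of the 10 members, in a RefSeq table of GRCm38.p6. The 250 bases before the start site are shown for the AMPA subunits that differed between tissues in opposite directions, Gria2 (chr3:80802836-80803085) and Gria4 (chr9:4796235-4796484), and for the closely related receptors Grm2 (chr9:106656110-106656359), with nearly the same level in both tissues, and Grm3 (chr5:9725353-9725602), higher in the cortex. The start site is that of the table, which for Gria2 lies inside the interval of the gene given above and not at its end. All 4 lie on the minus strand and are written from 5′ to 3′, with matches to searched motifs in capitals.
Gria2: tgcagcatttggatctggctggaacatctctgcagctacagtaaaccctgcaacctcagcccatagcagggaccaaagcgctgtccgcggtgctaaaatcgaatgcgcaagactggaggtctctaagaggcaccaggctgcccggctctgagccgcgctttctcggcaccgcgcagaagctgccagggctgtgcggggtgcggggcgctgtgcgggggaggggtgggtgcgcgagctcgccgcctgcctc
Gria4: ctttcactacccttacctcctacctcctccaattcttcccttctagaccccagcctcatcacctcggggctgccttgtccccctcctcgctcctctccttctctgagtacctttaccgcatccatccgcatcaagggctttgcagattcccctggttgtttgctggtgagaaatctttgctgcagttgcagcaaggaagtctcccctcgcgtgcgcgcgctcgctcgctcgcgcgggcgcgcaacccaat
Grm2: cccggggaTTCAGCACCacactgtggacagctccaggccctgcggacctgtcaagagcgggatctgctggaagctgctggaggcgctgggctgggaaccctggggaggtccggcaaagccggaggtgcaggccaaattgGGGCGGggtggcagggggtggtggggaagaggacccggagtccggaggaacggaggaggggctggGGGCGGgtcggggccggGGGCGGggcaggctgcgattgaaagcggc
Grm3: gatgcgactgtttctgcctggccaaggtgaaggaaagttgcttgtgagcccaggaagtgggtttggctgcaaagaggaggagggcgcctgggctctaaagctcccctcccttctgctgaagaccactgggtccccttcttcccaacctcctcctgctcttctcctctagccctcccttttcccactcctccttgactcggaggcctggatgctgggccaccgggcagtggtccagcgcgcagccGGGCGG
Motifs were searched on both strands. The GC box was searched as GGGCGG, and the EGR1 site, which can overlap it, as GCGGGGGCG. Of the RE1 element, which binds the repressor REST, a stretch was searched as TTCAGCACC. The cyclic AMP response element was read as TGACGTCA. For the E box the letters were CACGTG, and those of the TATA box were TATAAA. Grm2 held 3 GC boxes and 1 match to the RE1 stretch, and Grm3 held 1 GC box. Gria2 and Gria4 held no match in this window, and the fifth promoter, that of Grin1, held 2 E boxes. Of 32817 promoter windows of this length in the table, 32.7% held a GC box, 6.02% an E box and 0.302% the RE1 stretch, and the EGR1 site, cyclic AMP response element and TATA box were in 2.57%, 1.55% and 12.4%. A match is a run of letters and does not show that a factor binds there.

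Of the NMDA receptor subunits 1 of 3 was called between the tissues in any group. Grin2a, which encodes GluN2A, the subunit typical of mature synapses (chr16:9567901-9996083), was called lower in the cortex of WT MSX-3 and APP/PS1 H2O mice. In WT H2O mice its cortex levels were 1.17, 1.53, 1.74, 1.87 and 1.93 and its hippocampus levels ran from 1.60 to 2.50 with a median of 1.98, and these ranges overlapped. In WT MSX-3 mice the cortex levels were 0.45, 1.38, 1.42, 1.45 and 1.51, against 1.83 to 2.46 with a median of 2.12. In APP/PS1 H2O mice the cortex ran from 1.26 to 1.62 with a median of 1.47 and the hippocampus from 1.88 to 2.45 with a median of 2.25. Tissues did not overlap in the last 2 groups, and Grin2a was called there, with differences of -0.88 (1.83-fold, SE 0.199, adjusted p = 0.00659) and -0.74 (1.67-fold, SE 0.104, adjusted p = 0.000157). The difference was -0.41 in WT H2O mice (95% interval -0.81 to -0.01, adjusted p = 0.134) and -0.57 in APP/PS1 MSX-3 mice (1.48-fold, adjusted p = 0.00332). With the slide as a block the adjusted p of Grin2a in WT MSX-3 mice was 0.0527, a value that rests on slides 6 and 7, which each held 1 array of either tissue.

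Grin1, the obligatory subunit at chr2:25291177-25319187, had differences of 0.44 in WT H2O mice (95% interval 0.14 to 0.75, adjusted p = 0.0336) and 0.44 in APP/PS1 MSX-3 mice (adjusted p = 0.0106), higher in the cortex and below 1.5-fold. In WT MSX-3 and APP/PS1 H2O mice it was 0.27 (95% interval -0.00 to 0.54) and 0.22 (95% interval -0.09 to 0.52), with adjusted p of 0.14 and 0.283. In WT H2O mice, cortex levels of Grin1 had a mean of 2.37 ± 0.24 (SD, n = 5) and hippocampus levels a mean of 1.93 ± 0.22 (SD, n = 6), and the arrays of the tissues overlapped in each group. Grin2b encodes GluN2B, prominent in early development and at extrasynaptic sites, and lies at chr6:135713221-136173615. Its difference was -0.54 in WT MSX-3 mice (95% interval -0.83 to -0.25, adjusted p = 0.0101) and -0.13, -0.20 and -0.37 in WT H2O mice and in APP/PS1 mice on H2O and on MSX-3, with adjusted p of 0.714, 0.291 and 0.112. The arrays of the tissues overlapped for Grin2b in each group.

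Grm5, the receptor mGlu5 at chr7:87583981-88135063, was called lower in the cortex of each group. Cortex levels in WT H2O mice were 3.14, 3.40, 3.49, 3.49 and 3.53, and the hippocampus ran from 3.85 to 4.52 with a median of 4.10. In WT MSX-3 mice they were 2.44, 3.04, 3.20, 3.25 and 3.37, against 3.90 to 4.15 with a median of 4.04. APP/PS1 H2O mice had 3.14 to 3.45 with a median of 3.25 in the cortex and 3.83 to 4.22 with a median of 4.04 in the hippocampus. The highest of all cortex levels of Grm5 was 3.53 and the lowest hippocampus level 3.83, so that no array overlapped, as for Gria1 and Gria4. Such a separation of 22 cortex from 24 hippocampus arrays was met by 3 of 10 members and by 6.7% of all tested probes. In APP/PS1 MSX-3 mice the cortex ran from 2.83 to 3.39 with a median of 3.01 and the hippocampus from 3.83 to 4.16 with a median of 3.94. The difference of Grm5 was -0.73 in WT H2O mice (1.66-fold, SE 0.133, adjusted p = 0.00154), -0.97 in WT MSX-3, -0.77 in APP/PS1 H2O and -0.87 in APP/PS1 MSX-3 mice. The 2 other probes of Grm5 were lower as well, one by 0.65 to 0.88 and called in 4 of 4 groups, the other by 0.52 to 0.82 and called in 2.

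The receptors of the cyclase-inhibiting group, Grm2 and Grm3, were not alike. Grm3, at chr5:9485236-9725352, had cortex levels of 0.31, 0.48, 0.52, 0.56 and 0.68 in WT H2O mice and of 0.44, 0.60, 0.66, 0.79 and 0.97 in WT MSX-3 mice, against hippocampus levels from -0.12 to 0.02 with a median of -0.07 and from 0.00 to 0.39 with a median of 0.07. In APP/PS1 H2O mice the cortex ran from 0.38 to 0.68 with a median of 0.50 and the hippocampus from -0.29 to 0.00 with a median of -0.10. Values in APP/PS1 MSX-3 mice ran from 0.36 to 0.63 with a median of 0.49 and from -0.23 to -0.05 with a median of -0.12. Grm3 was higher in the cortex with no overlap in any of the 4 groups. The difference was 0.57, 0.56, 0.62 and 0.62 in WT mice on H2O, WT mice on MSX-3, APP/PS1 mice on H2O and APP/PS1 mice on MSX-3, with adjusted p from 2.69e-05 to 0.00382, and the folds of 1.49, 1.47, 1.54 and 1.54 lay on both sides of the 1.5-fold limit, so that it was called in the APP/PS1 groups alone. With the mouse as a block Grm3 was also called in WT MSX-3 mice (0.61, adjusted p = 0.00527), and with the slide as a block it was not called in APP/PS1 H2O mice (0.56). The tissue difference of Grm3 in APP/PS1 minus that in WT mice was 0.05 on H2O (95% interval -0.15 to 0.26) and 0.06 on MSX-3 (95% interval -0.21 to 0.33). Grm2, at chr9:106644534-106656109, had differences of 0.13, 0.11, 0.24 and -0.02, with adjusted p from 0.121 to 0.929, overlapping arrays in each group and 95% intervals that reached from -0.33 to 0.52.

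Counting members whose arrays did not overlap between the tissues gave 6, 6, 7 and 6 of 10 in WT mice on H2O, WT mice on MSX-3, APP/PS1 mice on H2O and APP/PS1 mice on MSX-3, against 19.1%, 18.9%, 19.4% and 17.5% of all probes. An adjusted p under 0.05, whatever the fold, was reached by 7, 8, 7 and 7 members, against 26%, 27%, 30.9% and 30.5% of all probes. With the 2 unread arrays included, Gria4 and Grm5 in WT H2O and Grin2a and Grm5 in WT MSX-3 mice were not called. The 9 further probes of the members had the direction of the representative probe in 4 of 4 groups each. Within the scan days, Gria1 was lower in the cortex of WT H2O mice by 1.79 on the first day and 1.84 on the second, Gria4 was higher by 1.41 and 1.27, and Grm5 lower by 0.61 and 0.78. The tissues were whole dissected pieces, and fewer cells of a type cannot be told apart from less RNA per cell. Some marker genes moved along with the tissues. The summed signal of 3 dentate granule cell markers, as multiples of the 75th percentile, ran from 0.336 to 0.53 in the cortex and from 3.09 to 7.59 in the hippocampus, that of 7 markers of inhibitory neurons from 110.3 to 182.3 and from 72.7 to 127.4, and that of 5 striatal markers from 13.4 to 23.8 and from 8.44 to 16.4. In WT H2O mice 3 of 3 dentate, 0 of 7 inhibitory and 0 of 5 striatal markers were called lower in the cortex, and 0, 4 and 2 were called higher, with Pvalb higher by 1.95 and Vip by 1.96. Of 3 markers of CA1 pyramidal cells 2 were called lower, and their sum ran from 6.18 to 10.6 in the cortex and from 8.53 to 17.6 in the hippocampus. Thalamic markers were split, 2 of 3 being called lower and 1 higher, with sums from 10.4 to 18.4 and from 5.32 to 17.9, as were astrocyte markers, with 2 of 7 called lower and 1 higher and sums from 41.7 to 65.9 and from 43.6 to 56.5. Of the general neuronal markers, 2 of 8 were called higher, and the median difference was 0.23. Excitatory neuron markers were split, 2 of 5 being called higher and 1 lower, with a median difference of 0.02. Of 6 oligodendrocyte markers 0 were called, though 5 were lower in the cortex, with a median of -0.35. Choroid plexus markers varied widely within the hippocampus, where their sum ran from 1.24 to 202.8. The part of these cell types in the differences of the receptor genes was not tested.

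None of the 10 members was called between APP/PS1 and WT mice. The counts in this paragraph are of the brightest probe of each gene. In the cortex of H2O mice 0 of 10 were called, against 1.49% of all tested probes, and 0 had an unadjusted p under 0.05, against 11.7%. In the cortex of MSX-3 mice it was 0 of 10 called against 1.42% and 0 at the unadjusted level against 12%. In the hippocampus 0 of 10 were called in H2O mice, against 0.393%, with 2 at an unadjusted p under 0.05 against 10.2%, and 0 of 10 in MSX-3 mice, against 0.312%, with 1 against 4.66%. No overlap between the genotypes was found for 0, 0, 0 and 1 of 10 members, against 2.84%, 3.02%, 1.22% and 0.691% of all probes. Differences were between -0.21 and 0.03, -0.25 and 0.18, -0.22 and 0.15, and -0.26 and 0.10 in these 4 comparisons, and the median of the members was -0.08, 0.04, -0.03 and -0.08. These comparisons ask whether transcripts of the receptors differ with the transgenes. The 95% intervals of the brightest probes left out a 1.5-fold difference in either direction in these 4 comparisons except for Grin2a in the cortex of MSX-3 mice (-0.24 to 0.60). Further probes of the members are not covered by this statement.

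**Figure D3:**
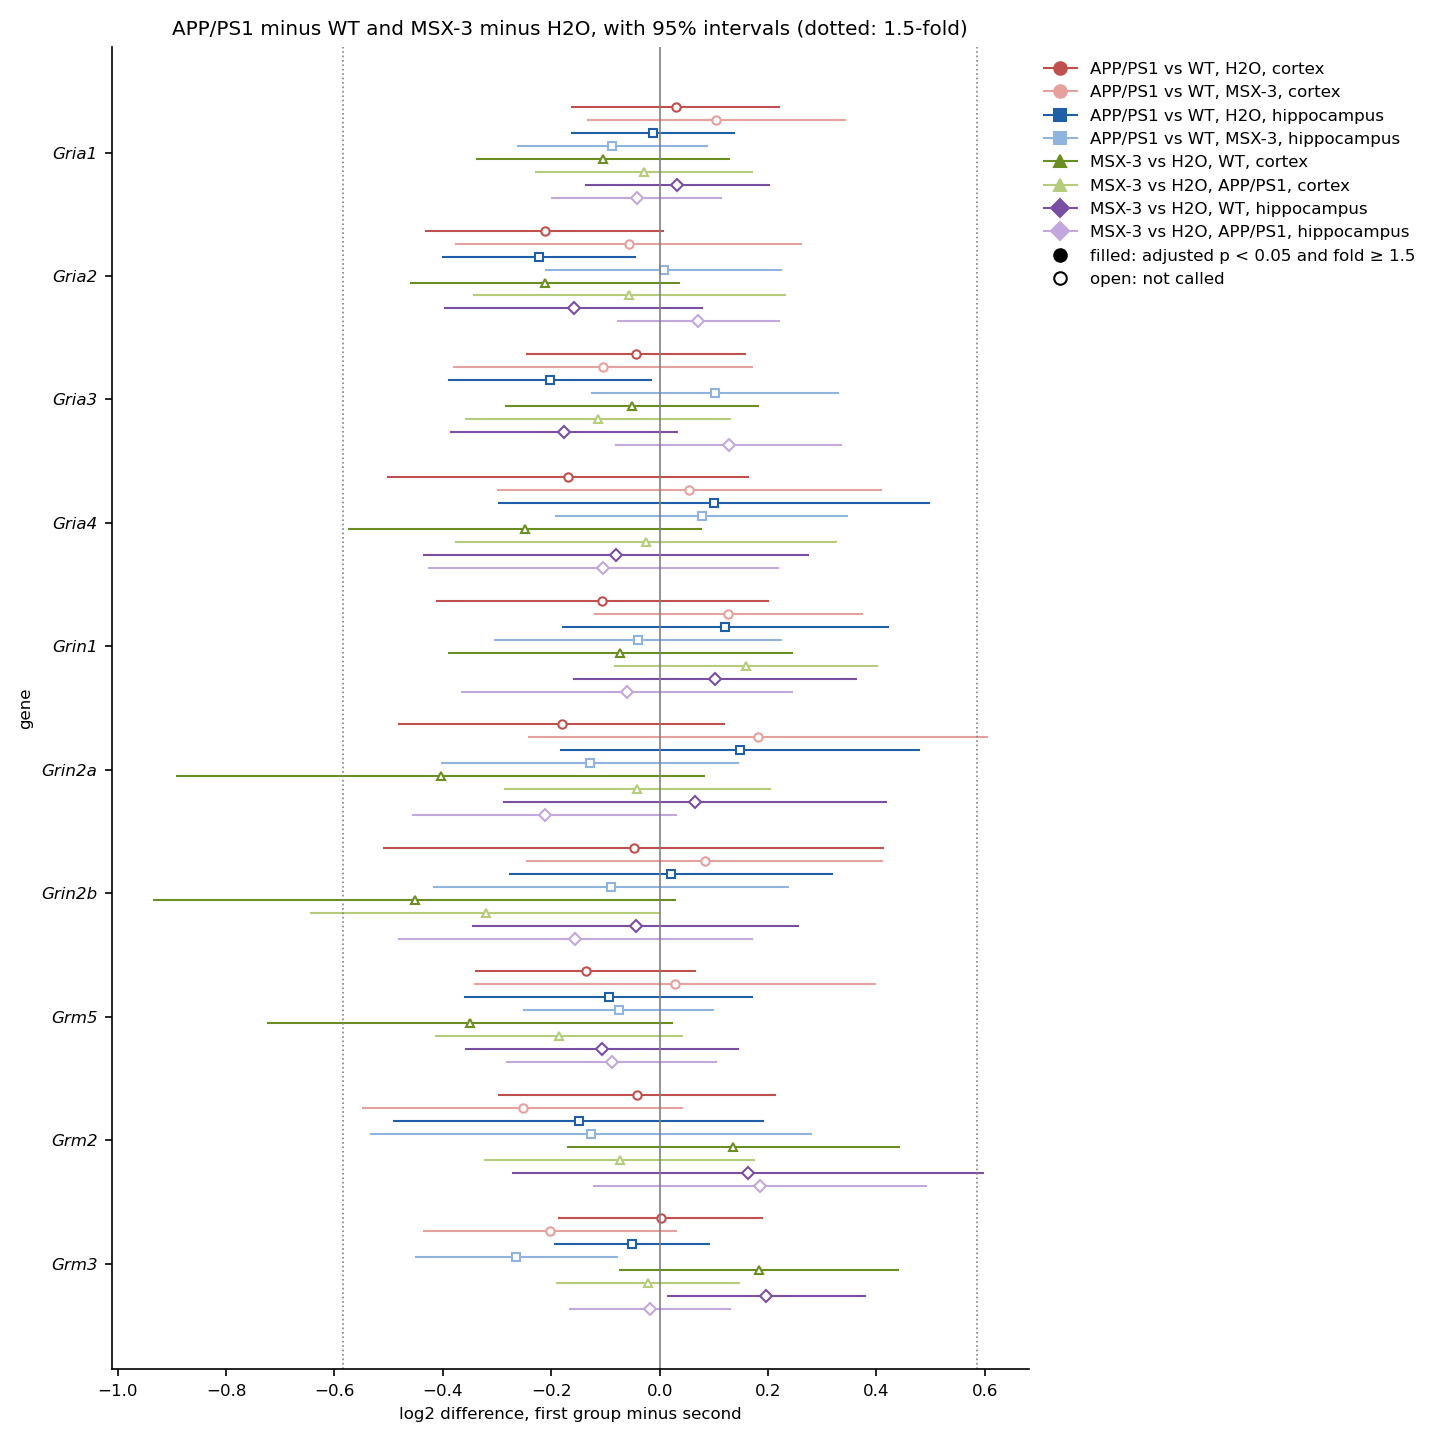
Log2 difference (x axis) of the 10 genes (y axis) between APP/PS1 and WT mice (circles in cortex, squares in hippocampus) and between MSX-3 and H2O mice (triangles in cortex, diamonds in hippocampus), with 95% intervals and dotted lines at a 1.5-fold difference. All symbols are open, since no gene was called, and 74 of the 80 intervals lie inside the dotted lines.

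Gria2 had the smallest unadjusted p of the members in H2O mice of each tissue. Its cortex levels were 3.95, 3.98, 4.15, 4.25 and 4.32 in WT H2O mice and ran from 3.70 to 4.07 with a median of 3.95 in APP/PS1 H2O mice. In the hippocampus they ran from 4.37 to 4.79 with a median of 4.53 in WT and from 4.25 to 4.46 with a median of 4.32 in APP/PS1 H2O mice. The groups overlapped in both tissues. The APP/PS1 mean was lower by 0.21 in the cortex (95% interval -0.43 to 0.01, unadjusted p = 0.0565, adjusted p = 0.444 in limma) and by 0.22 in the hippocampus (95% interval -0.40 to -0.05, unadjusted p = 0.018, adjusted p = 0.38). The other probe of Gria2 went the opposite way in the cortex, with means of 0.92 in APP/PS1 and 0.84 in WT H2O mice. In the hippocampus its means were 1.04 in APP/PS1 and 1.20 in WT H2O mice. Scan days were not balanced. Of the cortex arrays of APP/PS1 H2O mice 5 of 6 and of the hippocampus arrays 6 of 6 were scanned on the first day, against 2 of 5 and 2 of 6 of the WT H2O arrays, and within that day the difference of Gria2 was -0.02 in the cortex and -0.08 in the hippocampus. On the second day it was -0.45 in the cortex, with 1 APP/PS1 array against 3 of WT, and no APP/PS1 hippocampus array was scanned. In the cortex only slide 5 held both genotypes, with 2 APP/PS1 arrays and 1 WT array, and in the hippocampus only slides 2 and 5 did, with 1 of each. Values with the slide as a block rest on these arrays alone, and for Gria2 they were -0.01 and -0.07. Gria3, the other member with an unadjusted p under 0.05, was 1.22 in APP/PS1 and 1.42 in WT H2O hippocampus on average, a difference of -0.20 (unadjusted p = 0.036, adjusted p = 0.448), which was -0.14 within the first day and 0.02 with the slide as a block. Grin2b had a difference of -0.05 in the cortex of H2O mice and of 0.95 with the slide as a block, and the only WT array behind the second value was that of mouse 258, at 0.88, the other 4 lying from 1.82 to 2.01.

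Under MSX-3 the member with the smallest p was Grm3 in each tissue. Its hippocampus levels ran from -0.23 to -0.05 with a median of -0.12 in APP/PS1 MSX-3 mice and from 0.00 to 0.39 with a median of 0.07 in WT MSX-3 mice, without overlap, the only member of which this held. The difference was -0.26 (95% interval -0.45 to -0.08, unadjusted p = 0.00886, adjusted p = 0.668). It was -0.24 within the first scan day and -0.32 within the second, and -0.35 with the slide as a block. In the cortex the levels of Grm3 ran from 0.36 to 0.63 with a median of 0.49 in APP/PS1 MSX-3 mice and were 0.44, 0.60, 0.66, 0.79 and 0.97 in WT MSX-3 mice, with overlap and a difference of -0.20 (95% interval -0.43 to 0.03, adjusted p = 0.479). A further probe of Gria4, named here after its values were seen, had a smaller adjusted p in the cortex of H2O mice. Its levels were -0.77, -0.71, -0.49, -0.45 and -0.37 in WT mice and ran from -1.32 to -0.81 in APP/PS1 mice, without overlap, and its difference of -0.46 (unadjusted p = 0.0015) had an adjusted p of 0.0719, while the representative probe of Gria4 had a difference of -0.17 (adjusted p = 0.684). On the first scan day the levels of this further probe were -0.77 and -0.71 in WT mice and ran from -1.11 to -0.81 in APP/PS1 mice. On the second day they were -0.49, -0.45 and -0.37 in WT mice and -1.32 on the only APP/PS1 array. In the cortex of H2O mice the third probe of Gria4 and the other probe of Grin2a had means of -0.33 and 0.10 in APP/PS1 mice. Their means in WT mice were -0.09 and 0.42. The other probe of Gria2 and 1 further probe of Grm5 were higher in APP/PS1 mice, at 0.92 against 0.84 and 2.41 against 2.38. Microglial markers moved with the genotype, 3 of 5 being called higher in the APP/PS1 cortex of H2O mice with a median difference of 0.88, and their summed signal ran from 36.7 to 46.2 against 21.6 to 24.0 in WT. In the hippocampus 0 of 5 microglial markers were called, with medians of 0.37 on H2O and 0.35 on MSX-3. Of 8 neuronal markers 0 were called in the cortex of H2O mice, with a median of -0.04. Of 7 inhibitory neuron markers 0 were called there, though 7 were lower, with a median of -0.20. Astrocyte markers had 1 of 7 called higher in the same comparison. The part of these cell types in the levels of the members was not tested.

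MSX-3 was set against H2O within each genotype and tissue, and none of the members was called, as was none of all tested probes (0% in each of the 4 comparisons). At an unadjusted p under 0.05, limma gave 0, 0, 1 and 0 of the 10 members in WT cortex, APP/PS1 cortex, WT hippocampus and APP/PS1 hippocampus, against 8.64%, 5.74%, 4.97% and 3.85% of all probes. These counts are of the brightest probes. The other probe of Gria3, named after its values were seen, had means of 1.37 on H2O and 1.05 on MSX-3 in WT cortex. In APP/PS1 cortex they were 1.26 and 1.04. The brightest probe of Gria3 had means of 1.76 and 1.71 in WT cortex and of 1.72 and 1.61 in APP/PS1 cortex. In the WT cortex the differences of the members ran from -0.45 to 0.18, and the 3 lowest were those of Grin2b, Grin2a and Grm5. Grin2b, the member with the smallest p, had levels of 0.88, 1.82, 1.87, 1.94 and 2.01 on H2O and of 0.82, 1.23, 1.34, 1.35 and 1.53 on MSX-3. The H2O array at 0.88 lay within the MSX-3 range and the other 4 above it. The difference was -0.45 (95% interval -0.93 to 0.03, unadjusted p = 0.0628, adjusted p = 0.569), and -0.14 within the first scan day and -0.70 within the second. With array weights, which let arrays far from the fit count less, it was -0.57 with an adjusted p of 0.0218, still under 1.5-fold and not called, and over 15 alternatives the adjusted p lay between 0.0218 and 1.0. The difference of Grin2a was -0.40 (95% interval -0.89 to 0.08, adjusted p = 0.573) and that of Grm5 -0.35 (95% interval -0.72 to 0.02, adjusted p = 0.569), so that 1.5-fold lower values were not outside the intervals of these 3 genes. On MSX-3 the array of mouse 304 was lowest for Grin2a, at 0.45 with the next at 1.38. The lowest MSX-3 level of Grm5 was 2.44, with a median of 3.20.

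In the APP/PS1 cortex Grin2b again had the smallest p, with levels from 1.05 to 1.62 and a median of 1.34 on MSX-3 and from 1.28 to 2.05 with a median of 1.69 on H2O. These overlapped, and the difference was -0.32 (95% interval -0.64 to 0.00, unadjusted p = 0.0508, adjusted p = 0.73), -0.29 within the first scan day and -0.19 with the slide as a block. The other probe of Grin2b had means of -1.21 on H2O and -1.21 on MSX-3 in this tissue, with medians of -1.18 and -1.21. In the WT cortex its means were -1.14 and -1.22 and its medians -0.93 and -1.19. In the WT hippocampus the member with the smallest p was Grm3, with levels from 0.00 to 0.39 and a median of 0.07 on MSX-3 against -0.12 to 0.02 with a median of -0.07 on H2O, which overlapped between 0.00 and 0.02. Its difference was 0.20 (95% interval 0.02 to 0.38, unadjusted p = 0.0357, adjusted p = 0.981), and 0.19 and 0.25 within the scan days. In the APP/PS1 hippocampus Grin2a had a difference of -0.21 (95% interval -0.45 to 0.03, adjusted p = 0.976), with levels from 1.77 to 2.23 and a median of 2.01 on MSX-3 and from 1.88 to 2.45 with a median of 2.25 on H2O.

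Differences of differences were tested as well. The interaction of genotype and MSX-3 called 0 of 10 members in the cortex and 0 of 10 in the hippocampus, where 0% of all probes were called, and 0 and 2 members had an unadjusted p under 0.05, against 4.66% and 4.86%. The 2 were Gria3, with an interaction of 0.30 in the hippocampus (95% interval 0.03 to 0.58, unadjusted p = 0.0301, adjusted p = 0.89), and Grm3, with -0.21 (95% interval -0.42 to -0.01, unadjusted p = 0.0422, adjusted p = 0.89). For Gria3 the MSX-3 difference was -0.18 in WT and 0.13 in APP/PS1 mice, and for Grm3 it was 0.20 and -0.02. The hippocampal Grm3 values for genotype on MSX-3, for MSX-3 in WT mice and for this interaction share the WT MSX-3 arrays. They are not separate results. The mean of Grm3 was 0.14 in that group, against -0.06 in WT H2O, -0.11 in APP/PS1 H2O and -0.13 in APP/PS1 MSX-3 mice. In the cortex Grm3 had the smallest p, with -0.20 (95% interval -0.47 to 0.07, adjusted p = 0.753). The test of whether the genotype difference changed with the tissue called 0 of 10 members in H2O mice, against 0.238% of all probes, and 0 of 10 in MSX-3 mice, against 0.174%, with 0 members at an unadjusted p under 0.05 against 4.32% and 6.62%. The smallest p belonged to Grin2a in H2O mice (-0.33, 95% interval -0.77 to 0.11, adjusted p = 0.973) and to Gria1 in MSX-3 mice (0.19, 95% interval -0.07 to 0.46, adjusted p = 0.688). For the tissue differences of Grin2a, called in 2 of the 4 groups, no change with genotype passed the test.

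Other genes of glutamate signalling were taken from 5 lists with 63 genes, of which 61 were measured and 2, Grm6 and Nptxr, had no kept probe under their name. Between the tissues 16 were called higher and 12 lower in the cortex of WT H2O mice, 16 and 14 in WT MSX-3, 13 and 13 in APP/PS1 H2O and 15 and 11 in APP/PS1 MSX-3 mice, beside 8.09%, 7.67%, 7.85% and 7.48% of all probes called higher and 7.75%, 8.83%, 7.19% and 9.87% called lower. The same 12 genes were higher in all 4 groups and the same 11 lower, 9 were called in 1 to 3 groups and 29 in none. How many of all probes were called in the same direction in all 4 groups was not counted. The median difference of the 61 genes was 0.02 in WT H2O mice.

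**Figure D4:**
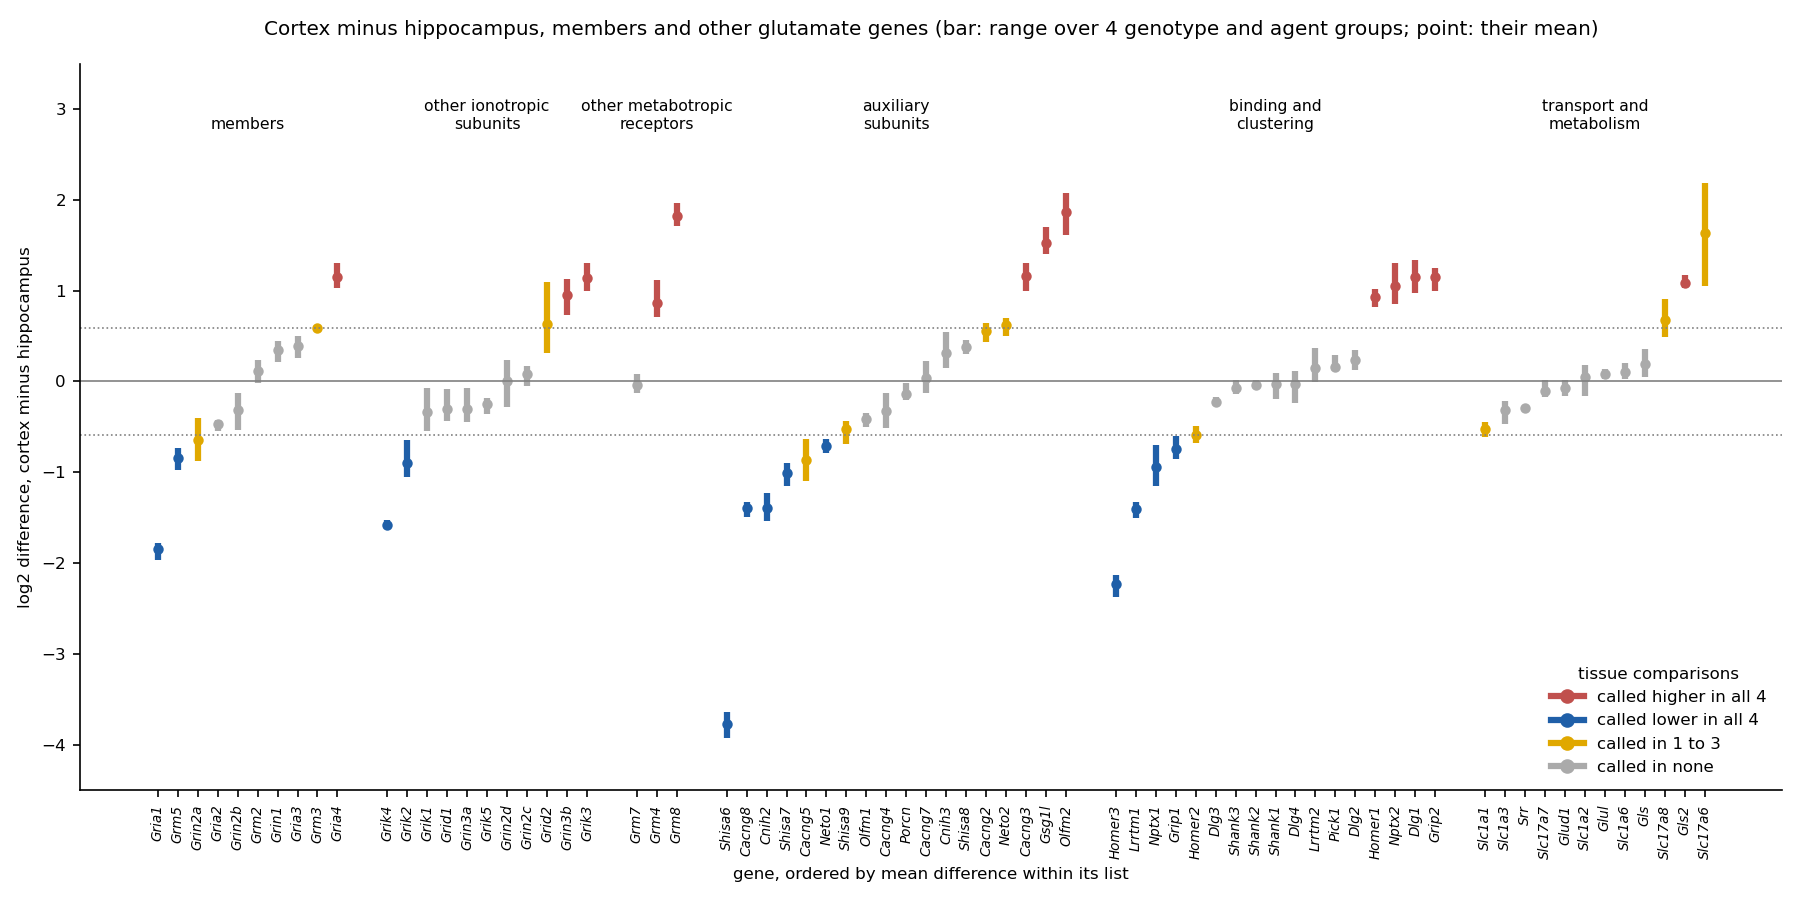
Log2 difference between cortex and hippocampus (y axis, positive where the cortex is higher) of the 10 members and of 61 other glutamate genes in 5 lists (x axis), as the mean (point) and range (bar) over the 4 genotype and drinking water groups. Shisa6 lies lowest, between -3.92 and -3.64, and genes called higher (red) and lower (blue) in all 4 groups stand side by side among the members, the ionotropic and auxiliary subunits and the binding proteins.

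Among the 18 auxiliary subunits, proteins that escort AMPA and kainate receptors and set their gating, 5 were lower in all 4 groups and 3 higher. Shisa6, which keeps AMPA receptors at the synapse, was lower in the cortex by 3.64 to 3.92, the largest difference in the lists, and Cnih2 and Cacng8, partners of Gria1 in hippocampal AMPA receptors, by 1.23 to 1.53 and 1.32 to 1.49. Shisa7 and Neto1 were lower as well. Olfm2, Gsg1l and Cacng3, which encode a secreted olfactomedin and 2 transmembrane partners of AMPA receptors, were higher by 1.61 to 2.08, 1.40 to 1.70 and 1.0 to 1.31. Of 17 binding and clustering proteins 4 were lower in all 4 groups, with Homer3 at -2.38 to -2.13 and Lrrtm1 at -1.50 to -1.33 beside Nptx1 and Grip1, and 4 were higher, with Dlg1 at 0.98 to 1.33 and Grip2 at 1.0 to 1.25 beside Nptx2 and Homer1. Homer1 and Homer3 both bind Grm5 and moved in opposite directions, Homer1 being higher by 0.82 to 1.02.

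Of 11 further ionotropic subunits, the kainate receptor subunits Grik4 (-1.63 to -1.53) and Grik2 (-1.05 to -0.65) were lower in the cortex of all 4 groups, and Grik3 (1.0 to 1.31) and the NMDA subunit Grin3b (0.73 to 1.13) higher. Kainate subunits thus differed in direction, as the AMPA subunits did. Of 3 further metabotropic receptors Grm8 and Grm4, which inhibit adenylyl cyclase, were higher in the cortex of all 4 groups by 1.71 to 1.97 and 0.71 to 1.12. Among 12 genes of glutamate transport and metabolism Gls2, a glutaminase, was the only one called in all 4 groups (1.03 to 1.18, higher), and the vesicular transporter Slc17a6 was called in 3, by 1.05 to 2.19 over the 4 groups. The main vesicular transporter of both tissues, Slc17a7, had differences from -0.17 to 0.02 and was called in none.

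In the comparisons of genotype, MSX-3 and their interactions 0 of the 61 genes were called, beside 0% to 1.49% of all probes. At an unadjusted p under 0.05 there were 11 and 2 of 61 genes for the genotype in the cortex of H2O and MSX-3 mice, against 11.7% and 12% of all probes, and 6 and 6 in the hippocampus, against 10.2% and 4.66%. For MSX-3 there were 2, 0, 1 and 2 in WT cortex, APP/PS1 cortex, WT hippocampus and APP/PS1 hippocampus, against 8.64%, 5.74%, 4.97% and 3.85%. The smallest adjusted p was 0.0751, of Cnih3 in the cortex of H2O mice, lower in APP/PS1 by 0.42. Of the 61 genes 47 had a negative genotype difference in that comparison and 14 a positive one, with a median of -0.10 against -0.03 for all probes. In the cortex of MSX-3 mice 35 were negative and 26 positive, with a median of -0.03 against -0.03 for all probes. Negative differences in the hippocampus numbered 28 on H2O and 39 on MSX-3. The share of all probes with a negative difference was not counted, and the scan days of the H2O cortex arrays were not balanced.

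Within the groups, some members moved together from array to array. After subtraction of each group's mean, Pearson's r over 46 arrays was 0.72 between Grin2a and Grm5, 0.69 between Grin2b and Grm5 and 0.68 between Grin2a and Grin2b. Gria4 had an r of 0.62 with Grin1 and 0.61 with Gria2. Grm2 had negative values with 8 of the 9 other members, the lowest being -0.60 with Gria4 and -0.49 with Grm5. Arrays of 1 mouse, slide or scan day are not independent, and these values are a description of 46 arrays of 24 mice.

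**Figure D5:**
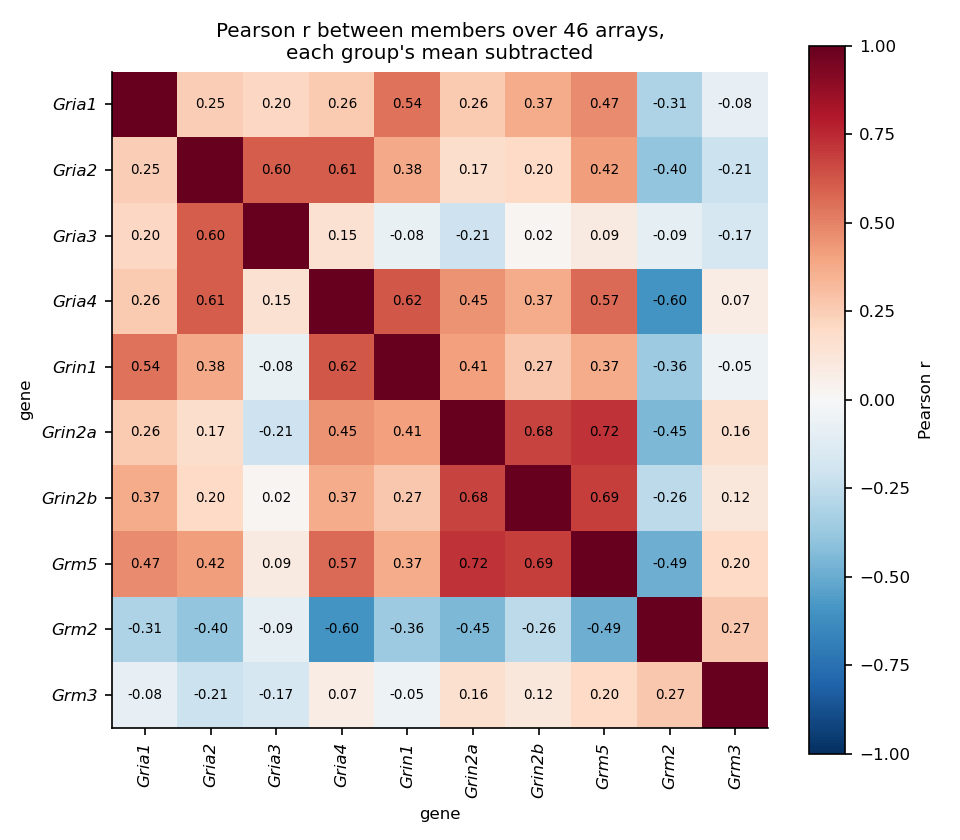
Pearson's r between the levels of the 10 genes (both axes) over 46 arrays after each group's mean was subtracted, from -1 (blue) to 1 (red). Grin2a, Grin2b and Grm5 form a block of values from 0.68 to 0.72, and the row of Grm2 holds negative values except with Grm3.

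The genes most like a member were looked up over all named genes. Over the 46 arrays with the tissue difference included, Gria1 was nearest to Slit1 (r = 0.994) and Pkp2 (0.993), Gria4 to Fgf12 (0.974) and Dcx (0.967), and Grm5 to Plppr4 (0.949) and Tcf4 (0.949). For Grin2a the nearest genes were Nell2 (0.96) and Mturn (0.949), for Grin1 Trim3 (0.947) and Hspbp1 (0.937), for Grm3 Jsrp1 (0.94) and Nova1 (0.934), and for Gria2 Epha5 (0.92) and Rev3l (0.916). Gria3, Grin2b and Grm2 had lower values, with Unc13b (0.872) and Akap5 (0.846), Afdn (0.847) and Kmt5b (0.836), and Slc38a8 (0.818) and 1700020L24Rik (0.806). Once the group means were subtracted, Trim3 stayed nearest to Grin1 (0.913), followed by Snx32 (0.906), and Slc38a8 to Grm2 (0.868), followed by Aadacl4 (0.858). Fgf12 (0.856) came second to Zfp59 (0.858) for Gria4, Nell2 (0.897) to Heatr5b (0.902) for Grin2a, and Afdn (0.804) to Trp63 (0.808) for Grin2b. Gria1, whose spread lay mostly between the tissues, then came nearest to Dscaml1 (0.768) and Camkv (0.766). The remaining nearest genes were Gcc2 and Zfp292 (both 0.854) for Gria2, Pcdhb5 (0.737) and Bcap29 (0.702) for Gria3, Pus7 (0.826) and Srpk2 (0.82) for Grm5, and Tspan12 (0.688) and Fahd1 (0.66) for Grm3. Probes of the same gene had r from 0.536, in Gria2, to 0.937, in Gria4, over the arrays.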

How the data were processed

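RNA of cortex and hippocampus was hybridised to 48 Agilent arrays of 1 colour, scanned and read with Agilent Feature Extraction 10.7.3.1. The values used are the processed signal intensities deposited by the authors per spot, already background-subtracted by the scanner software. The deposited value table held the same intensities (3022848 of 3022848 values equal within 1e-06). From the log2 of each intensity the array's own 75th percentile was taken off. Control spots (3671 of 62976) and spots flagged as outliers were left out, and spots of a probe were averaged. Probes were named through their accessions, 32994 of 56605 probes for 22911 genes. The filter on dim probes asked for 4 or more arrays of a group well above background, which left 37677 probes in cortex, 38128 in hippocampus and 39063 in either. On the 46 arrays used the 75th percentile lay between 535.1 and 1084 intensity units, and the number of arrays limits the precision.

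Groups were compared with limma 3.58.1 (lmFit and eBayes, R 4.3.3), fitted on the groups of each comparison, with Benjamini-Hochberg adjustment over all kept probes, in 16 comparisons. The 10 genes and all lists were chosen with earlier results of these data known. Of the listed genes, 2 are not reported here and were left out of all list counts. All 10 members were named, with array values where a member was called, or had the smallest p where none was. Of other glutamate genes the rule names the 10 called with the largest folds per comparison, of markers none, and of all genes the 2 with the highest r to a member. Other listed genes and markers are named after their values were seen. Mouse numbers in the labels mark the animal, so cortex and hippocampus of the same number are paired. Over 22 mice with both tissues the correlation of their deviations from the group means had a median of 0.0383 (from -0.52 to 0.499). Alternatives were background correction by normexp (offset 50), other scalings and filters, array weights, slide, scan day or mouse as a block, the unread arrays included and each replicate left out. The fits were tested on simulated data. Figures were drawn with matplotlib 3.10.9.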

Additional observations from a re-analysis of the deposited data

Results flagged for a closer look

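In 5 of the 80 sets of 1 gene in 1 group, a single array stood apart, its gap to the next array being a large share of the group's range. Chance gives this in about 1 of 20 such sets. In the cortex of WT MSX-3 mice, mouse 282 was highest for Gria1, at 4.24 with the next array at 3.90 (gap over range 0.761), and for Gria2, at 4.20 with the next at 3.90 (0.741). Mouse 304 of the same group was lowest for Grin2a, at 0.454 with the next at 1.38 (0.878). In the cortex of WT H2O mice, mouse 258 was lowest for Grin2b, at 0.884 with the next at 1.82 (0.833). In the cortex of APP/PS1 H2O mice, mouse 255 was lowest for Gria4, at 1.19 with the next at 1.65 (0.738). The cortex arrays of mice 304 and 255 were on slide 7, which also held both arrays left out. Those of mice 282 and 258 were on slides 6 and 5. Whether the slide bears on these values was not tested.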

How the results depend on the processing

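The count of members called stayed at 0 in the 12 comparisons of genotype, MSX-3 and their interactions. This held in all 359 combinations of comparison and setting, which include the main fits and those with each replicate left out. With array weights Grin2b had an adjusted p of 0.0218 for MSX-3 in WT cortex (-0.57), below the fold limit. Between the tissues, with the unread arrays included, it was 1 in WT H2O mice and 2 in WT MSX-3 mice, where Gria4 (1.01, adjusted p = 0.147) and Grm5 (-1.49, adjusted p = 0.392), and Grin2a (-1.15, adjusted p = 0.0939) and Grm5 (-1.56, adjusted p = 0.207), were no longer called. With no minimum fold change it was 7 in WT H2O, 8 in WT MSX-3 and 7 in APP/PS1 MSX-3 mice, since smaller differences then count. With each replicate left out it lay between 3 and 4, 4 and 5, 5 and 5, and 4 and 5 in WT mice on H2O, WT mice on MSX-3, APP/PS1 mice on H2O and APP/PS1 mice on MSX-3. With the mouse as replicate block, which uses the pairing of the tissues, it was 3, 5, 5 and 4, the added call being Grm3 in WT MSX-3 mice (0.61, adjusted p = 0.00527), and no other call changed. With the slide as a block, which could be fitted for 15 of the 16 comparisons, Grin2a in WT MSX-3 mice (-0.99, adjusted p = 0.0527) and Grm3 in APP/PS1 H2O mice (0.56, adjusted p = 0.00239) were not called. Grm3 in APP/PS1 MSX-3 mice was not called with normexp (0.56) or without mouse 283 (0.58). The cause of these shifts was not tested. With 5 to 6 arrays a group, the number of arrays limits what can be seen.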
